A study of Mus musculus with 4 samples.

Results

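The colony-stimulating factors are secreted proteins that keep myeloid cells alive and drive their growth and maturation, and their transcripts and those of their receptors were followed here across the cell classes of the mouse brain after stroke. The group held 8 genes, chosen by symbol among the 31253 genes counted: the ligand genes Csf1, Il34, Csf2 and Csf3 and the receptor genes Csf1r, Csf2ra, Csf2rb and Csf3r. Every one of the 8 had at least 1 unique molecular identifier (UMI, a tag that marks a single captured transcript) in the kept cells, with totals of 44357 UMIs for Csf1, 255988 for Csf1r, 707 for Il34, 7 for Csf2, 119736 for Csf2ra, 61904 for Csf2rb, 27 for Csf3 and 28628 for Csf3r.

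CSF1R is a receptor tyrosine kinase with a pair of ligands, CSF1 and IL-34, and microglia and many tissue macrophages need its signal to survive. The receptor for GM-CSF, the product of Csf2, joins a ligand-binding alpha chain (Csf2ra) to the beta common chain (Csf2rb), which the receptors for IL-3 and IL-5 also use and which signals through JAK2 and STAT5. G-CSF, the product of Csf3, binds CSF3R and drives the production and release of neutrophils.

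The study set 2 libraries labelled Flox, from Htr2b flox/flox littermates, against 2 libraries labelled cKO, from mice in which the serotonin receptor gene Htr2b was to be deleted with Ms4a3-Cre (Ms4a3 marks the progenitors of granulocytes and monocytes). The design text writes the deleted genotype as Htr2b ERCre; Ms4a3-Cre, so which Cre allele acted in which cells cannot be read from it, and the genotype field of every library reads C57B6. All mice were adults of either or both sexes, were given tamoxifen and a washout of 3 days, and then underwent transient middle cerebral artery occlusion (tMCAO, in which a large brain artery is blocked and reopened). The hemisphere on the injured side was taken 3 days after tMCAO and dissociated, and cells entered the BD Rhapsody microwell system without enrichment. Uninjured tissue is not among the groups, so every level below is a level after injury. Nothing in the labels says whether the 2 libraries of a group came from separate mice, so p-values measure only the spread between these libraries.

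The 4 libraries held between 77580518 and 105566650 UMIs and 59685 kept cells, from 13215 to 16267 a library. Depth moved with genotype: the median kept cell had 6599 and 5523 UMIs in Flox control 1 and 2 and 3764 and 4004 UMIs in Ms4a3 cKO 1 and 2. Only 15 barcode sequences recurred between libraries. Cells were grouped into 31 clusters without using the 8 genes, and 28 clusters were named from marker genes, giving 16 cell classes, among them microglia, astrocytes, oligodendrocytes and ependymal cells, as the labelled tissue would hold. Htr2b, the targeted gene, stood at 82.1 and 131 CPM (UMIs of a gene per 1000000 UMIs of the class) in the monocyte-macrophages of Flox control 1 and 2 and at 10.97 and 27.4 CPM in those of Ms4a3 cKO 1 and 2. In neutrophils Htr2b had 0 and 22 UMIs in the Flox control libraries and 6 and 5 UMIs in the cKO libraries, too few to check the labels there. Cell make-up also differed, with 160, 508, 1270 and 292 neutrophils and 1116, 1121, 159 and 112 dendritic cells in Flox control 1, Flox control 2, Ms4a3 cKO 1 and Ms4a3 cKO 2, the library order used for all series of 4 values below. Levels in these paragraphs are plain CPM of UMIs summed over a class, given where a library held at least 20 cells of it, and they are compared between classes but not between genes.

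The ligands and receptors were read from different parts of the tissue, with a large overlap in microglia. Csf1 was carried by microglia, neutrophils and oligodendrocytes, Il34 by mural cells and fibroblasts, while Csf2 and Csf3 had a few UMIs in T or NK cells, microglia and endothelial cells. Csf1r was highest in microglia and border macrophages, Csf2ra and Csf2rb in neutrophils and dendritic cells, and Csf3r in neutrophils.

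**Figure D1:**
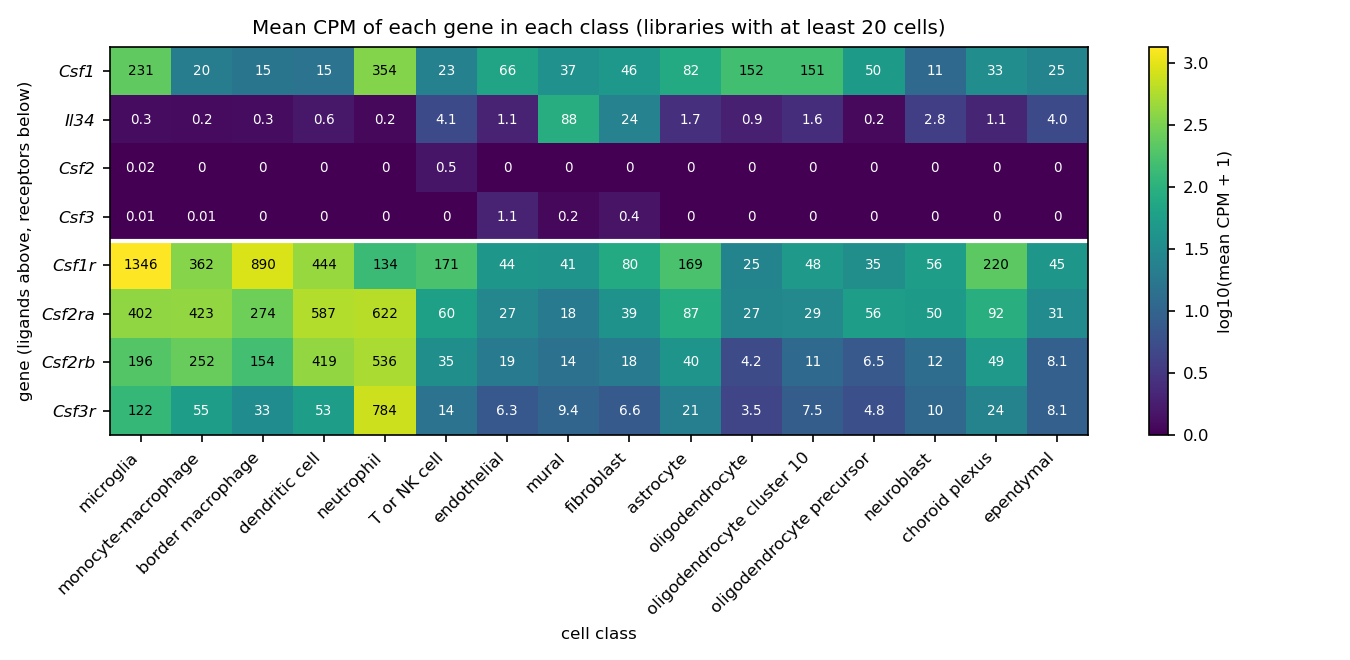
Mean level of each of the 8 genes (rows, ligands above receptors) in each cell class (columns), in CPM of summed UMIs averaged over the libraries with at least 20 cells of the class; the printed number is the rounded mean CPM and the colour is log10(mean CPM + 1), on the same scale for all genes. Il34 is at 87.6 CPM in mural cells and at 23.5 CPM in fibroblasts, while the receptor genes are highest in myeloid classes.

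Csf1 encodes the main ligand of CSF1R in most tissues (chromosome 3, 107741048-107760469, minus strand, GRCm38). In neutrophils Csf1 stood at 338, 759, 117 and 200 CPM (mean 354 ± 285 SD, n = 4 libraries). In microglia it stood at 256, 260, 225 and 184 CPM (231 ± 35.5). The neutrophil values lay on both sides of the microglial ones, so the order of these leading classes was not fixed. Oligodendrocytes followed at 183, 157, 127 and 140 CPM (152 ± 24.1), with every library below its own microglia and the highest oligodendrocyte value just under the lowest microglial value of 184 CPM. A separate oligodendrocyte cluster found almost only in the cKO libraries, cluster 10, had 154 and 147 CPM there, inside the range of the other oligodendrocytes. Astrocytes stood at 84.1, 77.3, 76.2 and 89.7 CPM (81.8 on average) and endothelial cells at 65.3, 70.2, 76.0 and 51.4 CPM (65.7), and these ranges did not overlap. Fibroblasts (45.6 CPM), mural cells (37.5), border macrophages (15.4) and dendritic cells (14.6) were lower.

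Monocyte-macrophages, the infiltrating counterpart of microglia, carried little Csf1 outside Flox control 1: 51.7, 9.67, 10.9 and 8.63 CPM. Flox control 1 stood apart there. Of its monocyte-macrophages 2828 of 3776 lay in cluster 5, led by Gpnmb and Gdf3, whereas cluster 1, led by Arg1 and Thbs1, held most of those in Flox control 2 (3454 of 4256), Ms4a3 cKO 1 (1901 of 2880) and Ms4a3 cKO 2 (1332 of 1526). Csf1 was higher in Flox control 1 within both, at 56.2, 9.4, 20.3 and 14.95 CPM in cluster 5 and at 108, 8.8, 8.4 and 8.8 CPM in cluster 1. The summed level of 10 microglial marker genes in monocyte-macrophages was also highest in Flox control 1, at 8763 CPM against 2815 to 4577 CPM in the other libraries, and its part in the Csf1 level was not tested.

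Within neutrophils Csf1 divided between clusters. Cluster 14, led by Il1b, Hdc and Cxcr2, had 486, 794, 204 and 342 CPM. Cluster 17, led by the blood-neutrophil genes Retnlg and S100a8, had 28.9, 90.4 and 12.3 CPM in Flox control 1, Ms4a3 cKO 1 and Ms4a3 cKO 2 (Flox control 2 had 13 such cells and is not given). In every library with both clusters, cluster 14 was higher. Cluster 17 made up most neutrophils of Ms4a3 cKO 1 (836 of 1270 cells) and few of Flox control 2 (13 of 508), and the part of this make-up in the class level was not tested.

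Microglial clusters differed less in Csf1. The injury-associated cluster 2, led by Cd5l, Mmp12 and Igf1, had 340, 302, 189 and 199 CPM, cluster 0, led by Cacnb2, Il1a and Siglech, 173, 280, 314 and 193 CPM, the interferon-response cluster 3, led by Ccl12 and Ifit3, 226, 206, 195 and 152 CPM, and the cycling cluster 6, led by Mki67 and Top2a, 180, 214, 146 and 162 CPM. These ranges overlapped throughout. Microglia, the most numerous class in all 4 libraries, held 73.8, 72.4, 77.5 and 78.9% of all Csf1 UMIs (75.6% ± 3.05), against 5.61% on average in oligodendrocytes, 5.60% in monocyte-macrophages (16.04, 2.80, 2.49 and 1.06%), 2.74% in oligodendrocyte cluster 10, 2.68% in neutrophils and 2.36% in endothelial cells.

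Il34 encodes the second CSF1R ligand, which neurons and keratinocytes are known to make (chromosome 8, 110741829-110805924, minus strand). In mural cells, the pericytes and smooth muscle cells of the vessel wall, Il34 stood at 72.1, 72.2, 106 and 100 CPM (87.6 ± 17.96), from 407 UMIs in 1384 cells. Fibroblasts had 4.55, 10.7, 31.9 and 47.0 CPM (23.5 ± 19.5), from 123 UMIs in 1426 cells. The mural and fibroblast ranges did not overlap. Every other named class averaged at most 4.05 CPM, among them astrocytes at 1.74, endothelial cells at 1.05 and microglia at 0.29 CPM. Neurons, a known source, were not among the named classes apart from 560 neuroblasts (2.78 CPM).

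Inside the mural class, Il34 was higher in cluster 20, led by the pericyte genes Abcc9, Rgs5 and Kcnj8, than in cluster 24, led by the smooth muscle genes Myh11 and Acta2. Cluster 20 had 109, 163 and 187 CPM in Flox control 2, Ms4a3 cKO 1 and Ms4a3 cKO 2 (16 cells in Flox control 1 were too few), and cluster 24 had 38.7, 42.7, 58.3 and 51.2 CPM. The clusters' ranges did not overlap. With every mural cell thinned to 1000 UMIs, 11.4, 10.5, 11.1 and 11.3% held an Il34 UMI (11.1% ± 0.41; 24.2% without thinning). Flox control 1 had only 10 Il34 UMIs in its 36 mural cells, so its values are imprecise. Mural cells held 32.3, 38.4, 64.8 and 69.3% of the Il34 UMIs and fibroblasts 32.3, 32.8, 7.93 and 11.9%, shares that follow the number of mural cells (36, 242, 505 and 601) and of fibroblasts (264, 863, 130 and 169).

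**Figure D2:**
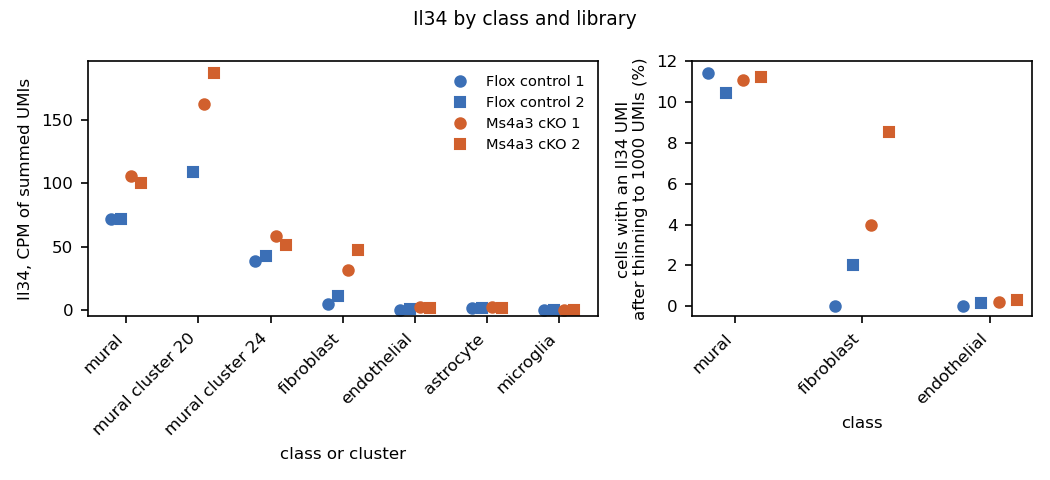
Il34 by library, as CPM of summed UMIs in 5 classes and the 2 mural clusters (left) and as the percent of mural cells, fibroblasts and endothelial cells with an Il34 UMI after thinning to 1000 UMIs a cell (right); each point is a library with at least 20 cells, blue for Flox control and orange for Ms4a3 cKO. Mural CPM is 72.1 and 72.2 in the Flox control libraries and 106 and 100 in the cKO libraries, while the thinned share stays between 10.5 and 11.4%. The mural CPM of Flox control 1 rests on 10 UMIs.

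Csf2 and Csf3, the genes of GM-CSF and G-CSF, were almost undetected. Csf2 (chromosome 11, 54247271-54249667, minus strand) had 4 UMIs in 4 of 592 T or NK cells of Flox control 1 (0.676%, exact binomial 95% interval 0.184 to 1.72%) and 3 UMIs in 2 microglia of Flox control 2. The T or NK cells of the other libraries had none, but they numbered 123, 48 and 84, which allows shares of up to 2.44, 6.25 and 3.57% (3 counts of the total, as for all such limits). Csf3 (chromosome 11, 98701263-98703629, plus strand) had 25 of its 27 UMIs in Ms4a3 cKO 1, of which 21 lay in 15 of 1730 endothelial cells (0.867%, interval 0.486 to 1.43%). Ms4a3 cKO 2 had 2 UMIs in 2 of 1798 endothelial cells (0.111%, interval 0.0135 to 0.401%). No Csf3 UMI was seen in the endothelial cells of Flox control 1 (0 of 145, which allows up to 2.07%) or Flox control 2 (0 of 818, up to 0.367%). The cKO libraries differed from each other by more than their counting intervals, so no genotype difference was read from Csf3. These intervals and limits cover counting error only, and they limit cells with a UMI, not cells that make the protein.

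Csf1r, the receptor of Csf1 and Il34 (chromosome 18, 61100598-61132149, plus strand), was highest in microglia at 1641, 1259, 1221 and 1264 CPM (1346 ± 198). Border macrophages, which line the meninges, vessels and choroid plexus, had 1151, 891, 710 and 810 CPM (890 ± 189). In each library microglia were above border macrophages. Dendritic cells (447, 418, 427 and 486 CPM, mean 444) and monocyte-macrophages (315, 327, 406 and 401 CPM, mean 362) were next, without overlap of their ranges. Thinned to 1000 UMIs, 79.3, 71.4, 72.2 and 72.9% of microglia held a Csf1r UMI (74.0% ± 3.602; 98.4% without thinning), against 31.5% of dendritic cells, 30.9% of monocyte-macrophages and 10.9% of neutrophils. The share was 3.93% in endothelial cells and 2.14% in oligodendrocytes, classes that should lack the gene, with median depths of 2171 to 3218 and 4786 to 7497 UMIs.

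Lower Csf1r levels in neutrophils and non-myeloid classes ran beside the microglial marker genes found in the same classes. As a percent of the microglial level, Csf1r stood at 16.3% in choroid plexus, 12.7% in T or NK cells, 12.6% in astrocytes, 9.94% in neutrophils, 5.97% in fibroblasts and 3.28% in endothelial cells. The summed level of the 10 microglial markers stood at 15.7, 11.3, 12, 9.53, 6.07 and 3.22% of its microglial level in those classes. Border macrophages (66.1% for Csf1r against 26.7% for the markers) and dendritic cells (33.0 against 14.6%) carried more Csf1r than their microglial markers, and monocyte-macrophages carried the same percent of each (26.9 and 26.8%). Some of these markers, such as Cx3cr1, are also known from macrophages, and the part of microglial RNA in any of these levels was not tested.

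Csf1r divided the microglial clusters by state. Flox control 1 had most of its microglia in cluster 3 (3108 of 5421) and few in cluster 0 (224), which was the largest cluster of the other libraries. Clusters 0 and 3 had 2187, 2176, 1756 and 1848 CPM and 2249, 2061, 1665 and 2124 CPM. The injury-associated cluster 2 had 1103, 937, 903 and 977 CPM and the cycling cluster 6 had 1054, 753, 763 and 810 CPM. The lowest value of clusters 0 and 3 was above the highest of clusters 2 and 6, in contrast to Csf1, whose ranges overlapped. With 1000 UMIs a cell, 12.8, 12.04, 12.4 and 9.52% of microglia held UMIs of both Csf1 and Csf1r, and 46.4% did so without thinning. Since 98.4% of unthinned microglia held Csf1r and 46.8% held Csf1, the share with both was nearly the share with Csf1.

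**Figure D3:**
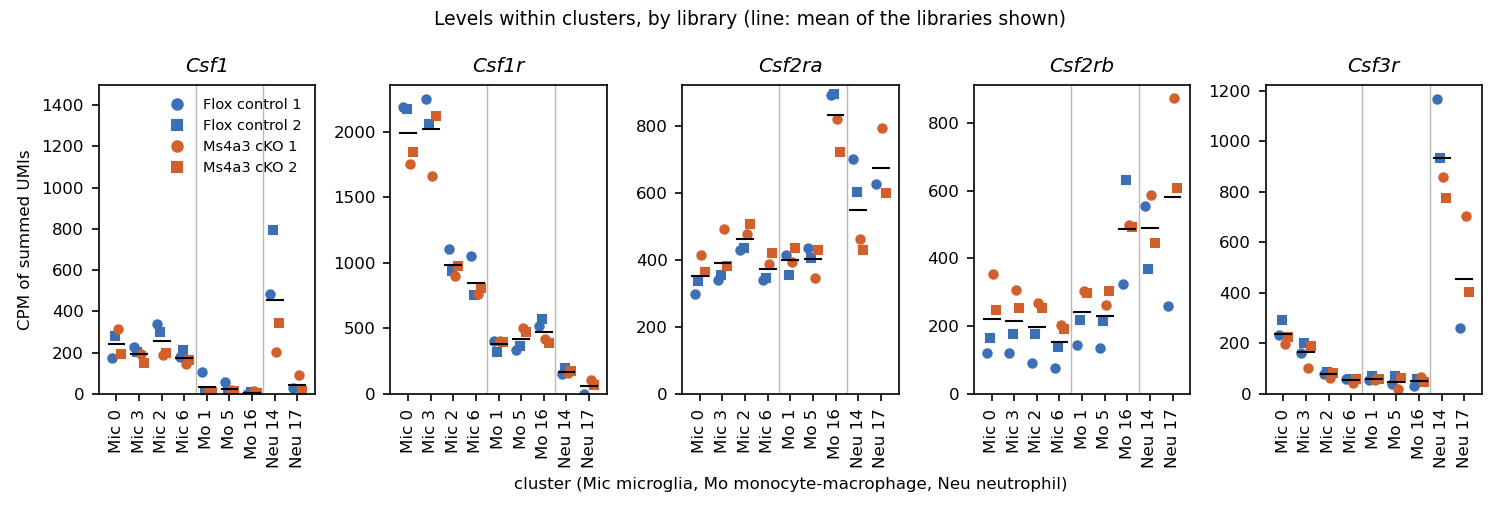
Levels of 5 of the genes in the clusters of microglia, monocyte-macrophages and neutrophils, in CPM of summed UMIs; each point is a library with at least 20 cells of the cluster and the line is the mean of the points. Csf1r and Csf3r are higher in microglial clusters 0 and 3 than in clusters 2 and 6, and Csf1 and Csf3r are higher in neutrophil cluster 14 than in cluster 17.

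Csf2ra, the ligand-binding chain of the GM-CSF receptor (chromosome 19, 61223957-61228429, minus strand), was spread over all myeloid classes. Neutrophils had 676, 594, 715 and 503 CPM (622 ± 94.2) and dendritic cells 606, 565, 625 and 554 CPM (587 on average), with overlapping ranges. Monocyte-macrophages (414, 365, 471 and 440 CPM) and microglia (370, 377, 429 and 432 CPM) also overlapped each other. Border macrophages had 262, 209, 319 and 308 CPM, below both of these in every library. Non-myeloid classes were lower, with choroid plexus at 91.8, astrocytes at 86.8, T or NK cells at 59.7, endothelial cells at 27.3 and oligodendrocytes at 26.6 CPM. Among monocyte-macrophages, cluster 16, led by the monocyte genes Chil3, Vcan and Ccr2, stood out at 892, 893, 821 and 723 CPM, above cluster 1 at 413, 356, 394 and 434 CPM in every library.

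Csf2rb, the signalling chain (chromosome 15, 78325752-78353847, plus strand), had its highest levels in neutrophils at 460, 362, 806 and 515 CPM (536 ± 191). Dendritic cells followed at 229, 377, 559 and 511 CPM (419 on average), monocyte-macrophages at 129, 222, 349 and 307 CPM (252), microglia at 104, 163, 285 and 235 CPM (196) and border macrophages at 95.4, 177, 167 and 175 CPM (154). Each of these neighbours overlapped in range. Flox control 1 was the lowest library in these classes except neutrophils, and without it the ranges of dendritic cells and monocyte-macrophages no longer overlapped while those of the other neighbours did. The order of these means held within Flox control 1, Ms4a3 cKO 1 and Ms4a3 cKO 2, and not within Flox control 2. In monocyte-macrophages cluster 16 again had more (326, 631, 499 and 492 CPM) than cluster 1 (145, 218, 305 and 299 CPM) in each library. Its neighbour Csf2rb2 lies 20031 bases away and encodes the near-identical IL-3-specific beta chain. Csf2rb2 had 35207 UMIs and averaged 178 CPM in dendritic cells, 142 in monocyte-macrophages, 119 in neutrophils and 118 in microglia. How reads shared by the copies were counted is not given in the sources used here, so the split of levels between Csf2rb and Csf2rb2 is uncertain.

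A cell needs both chains for GM-CSF signalling. Thinned to 1000 UMIs, 18.5, 14.5, 22.9 and 13.6% of neutrophils held UMIs of both Csf2ra and Csf2rb (17.4% ± 4.24; 33.0% without thinning), against 16.1% of dendritic cells, 8.14% of monocyte-macrophages and 5.82% of microglia. In endothelial cells the share was 0.238%. Without thinning the order was different, with 71.4% of monocyte-macrophages and 53.2% of microglia, whose cells held several times the UMIs of neutrophils (median 1290 to 1975 UMIs in neutrophils and 6360 to 10784 in monocyte-macrophages). Thinning left out 3, 115, 89 and 34 neutrophils with fewer than 1000 UMIs.

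Csf3r, the G-CSF receptor gene (chromosome 4, 126024550-126044440, plus strand), was highest in neutrophils at 873, 907, 741 and 614 CPM (784 ± 134). Microglia came next at 116, 134, 111 and 125 CPM (122 ± 10.2), then monocyte-macrophages at 34.4, 70.4, 59.4 and 56.3 CPM and dendritic cells at 53.4 CPM on average. No microglial value lay within the range of either neighbour. With 1000 UMIs a cell, 56.1, 54.5, 50.5 and 48.4% of neutrophils held a Csf3r UMI (52.4% ± 3.51; 67.4% without thinning), as did 14.3% of microglia (51.6% without thinning), 5.30% of monocyte-macrophages and 0.557% of endothelial cells. The microglial level was 15.5% of the neutrophil level, while the summed level of 11 neutrophil markers in microglia, 40.1 to 160 CPM, was 0.145% of that in neutrophils. Csf3r stood at a higher percent than these markers in every other class too. It had 3.05 against 0.0967% in choroid plexus, 2.71 against 0.137% in astrocytes and 0.444 against 0.0594% in oligodendrocytes. The part of RNA from other cells in any of these levels was not tested. Neutrophil cluster 14 had 1167, 934, 857 and 775 CPM against 261, 705 and 402 CPM in cluster 17 (Flox control 1, Ms4a3 cKO 1 and Ms4a3 cKO 2), so Csf3r and Csf1 were both higher in cluster 14 in each library that had both.

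Microglial clusters 0 and 3 stood above clusters 2 and 6 for Csf3r as for Csf1r. Cluster 0 had 233, 292, 198 and 226 CPM and cluster 3 had 162, 200, 104 and 189 CPM. Cluster 2 had 77.6, 86.5, 63.9 and 80.8 CPM and cluster 6 had 57.3, 59.2, 43.5 and 60.5 CPM. Cluster 0 was above cluster 3 in every library for Csf3r but not for Csf1r. Csf2rb did not split this way from cluster 2: cluster 0 had 120, 166, 355 and 248 CPM and cluster 2 had 92.2, 177, 268 and 254 CPM. For Csf3r, too, the lowest value of clusters 0 and 3 was above the highest of clusters 2 and 6.

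The proximal promoters of these myeloid receptor genes are shown because Csf2ra, Csf3r and Csf2rb2 were all highest in myeloid classes, whereas Csf2 was read in 6 cells. RefSeq promoters (GRCm38.p6) were at hand for 5 of the 9 genes looked up: Csf1, Csf2, Csf2ra, Csf3r and Csf2rb2. The 250 bases before each start were searched on both strands for GAGGAA (the core of a site for PU.1, the ETS factor of myeloid cells), TTGCNNAA (C/EBP) and TGANTCA (AP-1), none of which overlaps another in the windows below. Capitals mark the match, each window is 30 bases of the gene's own strand written 5′ to 3′, and positions count back from the base before the RefSeq start. For Csf3r and Csf2ra the GENCODE gene given above begins upstream of the RefSeq start, so the Csf3r window and part of the Csf2ra window lie inside the GENCODE gene. For Csf2 the GENCODE gene begins downstream, at 54249667, whereas the bases searched end at 54249900. The Csf2 match therefore lies further from the GENCODE start than its position says.
Csf2ra (chr19:61228419-61228448, minus strand): ttcccaacctgcagatGAGGAAGAGGAAgc
Csf3r (chr4:126024561-126024590, plus strand): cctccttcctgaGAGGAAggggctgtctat
Csf2rb2 (chr15:78305871-78305900, minus strand): ctctgtgtctgcTTCCTCcagagaagtcag
Csf2 (chr11:54250026-54250055, minus strand): gtaggtagagcTTGCCCAAaggcctccagg
In Csf2ra a pair of GAGGAA matches spans bases -14 to -3. The Csf3r match lies at -86 to -81, and that of Csf2rb2, on the opposite strand, at -167 to -162. Csf2 held the C/EBP letters at -145 to -138, and the window of Csf1 held none of the 3 motifs. Of 32851 RefSeq promoters of the same length, 23.3% held GAGGAA, 9.56% TTGCNNAA and 6.75% TGANTCA, so a match to GAGGAA is common, and a match is no evidence of binding.

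Where ligand and receptor transcripts lay can be read from their shares of UMIs. Microglia held 77.0% ± 6.15 of the Csf1r UMIs beside their 75.6% of the Csf1 UMIs, and monocyte-macrophages held 14.8% of Csf1r. The Csf2ra UMIs lay in microglia (50.1%) and monocyte-macrophages (36.5%), as did those of Csf2rb (45.1 and 39.3%). Although neutrophils had the highest Csf3r level, microglia held 69.2, 54.1, 48.1 and 78.7% of the Csf3r UMIs and neutrophils 4.23, 8.46, 30.9 and 5.11%. These shares follow the number and depth of the cells captured and are not amounts in the tissue.

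**Figure D4:**
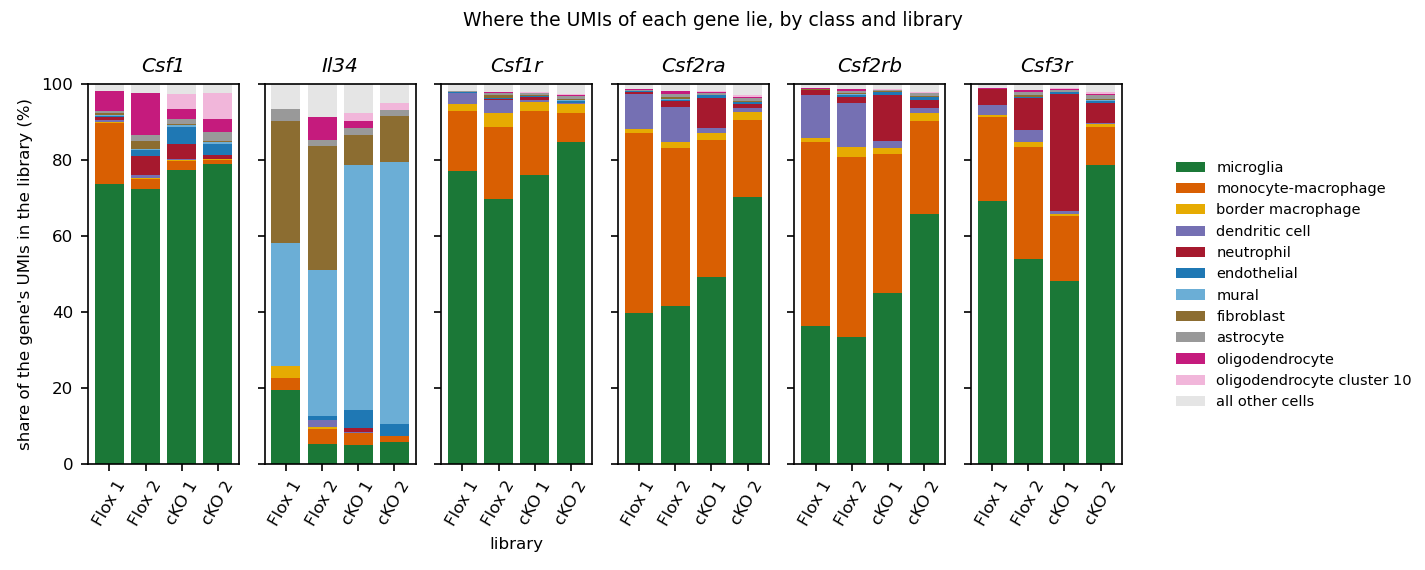
Percent of each gene's UMIs in a library that lay in each cell class, as 1 stacked bar for each of the 4 libraries and 6 of the genes (Csf2 and Csf3 are left out for their few UMIs). Averaged over libraries, microglia hold the largest share of Csf1 (75.6%), Csf1r (77.0%) and Csf3r (62.5%), while mural cells hold 51.2% of Il34.

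The genes whose levels ran most alike over the cell classes were found by Pearson's r of log2(CPM + 1) means over 16 classes, classes that share libraries. For Csf1r they were Ly86 (r = 0.99), Hpgds (0.98) and Tlr7 (0.98), and for Csf2rb Alox5ap, Nfam1 and Cd33 (0.98 each). Csf2ra ran with Nlrp1b (0.98), Gm49368 (0.97) and Rab32 (0.96), and Csf3r with Rabgef1 (0.96), Nlrp3 (0.95) and 4933432I03Rik (0.94). Il34 ran with Mmp11 (0.92), Npy1r (0.92) and the smooth muscle gene Tagln (0.91). Csf1, whose sources were mixed, had the loosest partners: Smox (0.81) and Stimate (0.74).

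The study's comparison was that of the genotypes within each class. Of the 8 genes, 6 passed the filter on low counts in at least 1 class, Il34 in 3 classes (microglia, fibroblasts and mural cells), and Csf2 and Csf3 in none. None changed between Flox control and Ms4a3 cKO in any of 12 classes with edgeR's quasi-likelihood test at an adjusted p of 0.05: of 60 pairs of a gene and a class, 0 passed, 8 had an unadjusted p under 0.05, and the lowest adjusted p was 0.263. Few genes of any kind passed. In microglia 0% of the genes tested passed (0 of 14347, with 1545 at an unadjusted p under 0.05 and 283 called by DESeq2), likewise in monocyte-macrophages (0 of 13158, 1570 and 460), neutrophils (0 of 6767, 452 and 51), endothelial cells (0 of 11390, 769 and 61), fibroblasts (0 of 10015, 1133 and 192) and neuroblasts (0 of 7160, 462 and 0). In the other classes 0.668% of genes passed in border macrophages, 0.0399% in dendritic cells, 0.645% in oligodendrocytes, 0.0174% in astrocytes, 0.024% in choroid plexus and 0.0108% in mural cells. In the same order, 1056 of 8982, 935 of 10033, 1494 of 10547, 2081 of 11492, 454 of 8317 and 835 of 9280 genes had an unadjusted p under 0.05 in edgeR's test. Such p-values were thus common among all genes, and nothing was read from the 8 pairs. Levels in the genotype comparison are TMM-scaled CPM, in which library composition is evened out. That scaling moved the cKO libraries against the Flox control ones by -0.14 in microglia, -0.17 in monocyte-macrophages and -0.13 in fibroblasts (log2), and fold changes are relative to it.

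Csf2rb was above both Flox control libraries in both cKO libraries in microglia, monocyte-macrophages and dendritic cells, without passing the test. In microglia it stood at 117 and 159 against 271 and 224 TMM-scaled CPM (log2 fold change 0.84 with an SE of 0.20; edgeR's adjusted p = 0.457). DESeq2 gave this gene an adjusted p of 0.0381 in microglia. Over 16 alternatives the log2 fold change there ran from 0.64 to 1.06, the highest without Flox control 2. Monocyte-macrophages had 154 and 209 against 329 and 289 (0.77, SE 0.21, edgeR's adjusted p = 0.369), and values of 0.57 to 1.01 over the alternatives. Dendritic cells had 253 and 364 against 539 and 497 (0.75, SE 0.25, edgeR's adjusted p = 0.400), and values of 0.51 to 1.05 over the alternatives. Flox control 1 was the lower control in all 3 classes. Within each of the 4 microglial clusters plain CPM had the same order, at 120 and 166 against 355 and 248 in cluster 0, 92.2 and 177 against 268 and 254 in cluster 2, 122 and 178 against 306 and 253 in cluster 3, and 77.2 and 138 against 203 and 192 in cluster 6. Monocyte-macrophage cluster 1 had 145 and 218 against 305 and 299 CPM, while cluster 16 overlapped. In neutrophils the groups overlapped, at 531 and 322 against 841 and 481 (0.64, SE 0.45, edgeR's adjusted p = 0.916). They also overlapped in border macrophages, at 99.3 and 171 against 166 and 175 (0.32, edgeR's adjusted p = 0.697; without Flox control 2, 0.79 and 0.00877; without Flox control 1, -0.0049 and 0.996). At low levels the cKO libraries were also above in astrocytes (22.6 and 35.5 against 49.7 and 52.8) and fibroblasts (9.39 and 13.6 against 30.1 and 18.2), classes that should lack the gene. The paralog Csf2rb2 had 107 and 128 against 178 and 146 in monocyte-macrophages (0.47, SE 0.18, edgeR's adjusted p = 0.421) and overlapped in microglia (0.19, edgeR's adjusted p = 0.714). Neutrophil markers moved with Csf2rb in dendritic cells, at 175 and 432 CPM against 964 and 708 CPM in sum, and less clearly in monocyte-macrophages, at 310, 213, 1425 and 270 CPM, and microglia, at 59.8, 40.1, 160 and 55.7 CPM; their part was not tested.

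Csf1 pointed the other way in its main sources. In microglia it stood at 289 and 254 in the Flox control libraries and at 214 and 175 TMM-scaled CPM in the cKO libraries. The log2 fold change was -0.48 (SE 0.16, edgeR's adjusted p = 0.461), and -0.64 to -0.34 over 16 alternatives. Plain CPM was lower in both cKO libraries in clusters 2, 3 and 6 and overlapped in cluster 0. Neutrophils had 390 and 675 against 122 and 187 (-1.80, SE 0.43, edgeR's adjusted p = 0.432), a change that passed with no filter on low counts (edgeR's adjusted p = 0.0335). Neutrophil cluster 17, low in Csf1, made up 34 of 160 and 13 of 508 neutrophils in the Flox control libraries and 836 of 1270 and 78 of 292 in the cKO libraries, and cluster 14 alone had 486 and 794 against 204 and 342 plain CPM. Oligodendrocytes had 200 and 153 against 120 and 139 (-0.44, SE 0.20, edgeR's adjusted p = 0.392), with -0.62 without Flox control 2 and -0.23 without Flox control 1. With the 8 genes and Csf2rb2 allowed among the genes that set the clusters, the oligodendrocyte value was -0.052. In monocyte-macrophages the groups overlapped, at 61.7 and 9.10 against 10.3 and 8.14; the log2 fold change of -1.94 (SE 0.90, edgeR's adjusted p = 0.451) became 0.028 when Flox control 1 was left out and -2.74 when Flox control 2 was. Astrocytes (0.03) and endothelial cells (-0.12) overlapped as well.

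Csf1r stood at 1854 and 1230 against 1160 and 1205 TMM-scaled CPM in microglia (log2 fold change -0.38, SE 0.23, edgeR's adjusted p = 0.536), where Flox control 1 alone stood apart. Without Flox control 2 the value was -0.67, and without Flox control 1 it was -0.054. The microglial markers in this class were likewise highest in Flox control 1, at 26420, 17439, 14628 and 15414 CPM in sum. Within clusters, plain CPM of Csf1r did not overlap in cluster 0 (2187 and 2176 against 1756 and 1848) and overlapped in clusters 2, 3 and 6. Border macrophages had 1199 and 861 against 706 and 809 (-0.44, SE 0.21, edgeR's adjusted p = 0.484), with -0.65 without Flox control 2 and -0.19 without Flox control 1. Monocyte-macrophages had 376 and 307 against 383 and 378 (0.15, SE 0.17, edgeR's adjusted p = 0.692). In 3 classes with low levels the cKO libraries were above. Neuroblasts had 16.1 and 41.4 against 95.8 and 67.9 (1.51, SE 0.49, edgeR's adjusted p = 0.708), and 0.95 to 2.29 over the alternatives. Oligodendrocytes had 10.7 and 22.6 against 26.3 and 37.6 (0.91, SE 0.40, edgeR's adjusted p = 0.369), and 0.51 to 1.58 over the alternatives. Astrocytes had 91.7 and 167.5 against 168.2 and 245 (0.65, SE 0.35, edgeR's adjusted p = 0.382). On plain CPM the astrocyte groups overlapped, at 172 in Flox control 2 and 168 in Ms4a3 cKO 1. The genotype effect in monocyte-macrophages minus that in microglia was 0.55 (SE 0.14, edgeR's adjusted p = 0.403). Across all genes 0% passed this test of the difference (0 of 14833, with 1511 at an unadjusted p under 0.05 and 194 by DESeq2). Without Flox control 2, the difference was 0.68 for Csf1r, -2.16 for Csf1 and 0.66 for Csf3r. With all 4 libraries the difference was -0.91 for Csf1 (edgeR's adjusted p = 0.746) and -0.04 for Csf2rb (0.905).

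**Figure D5:**
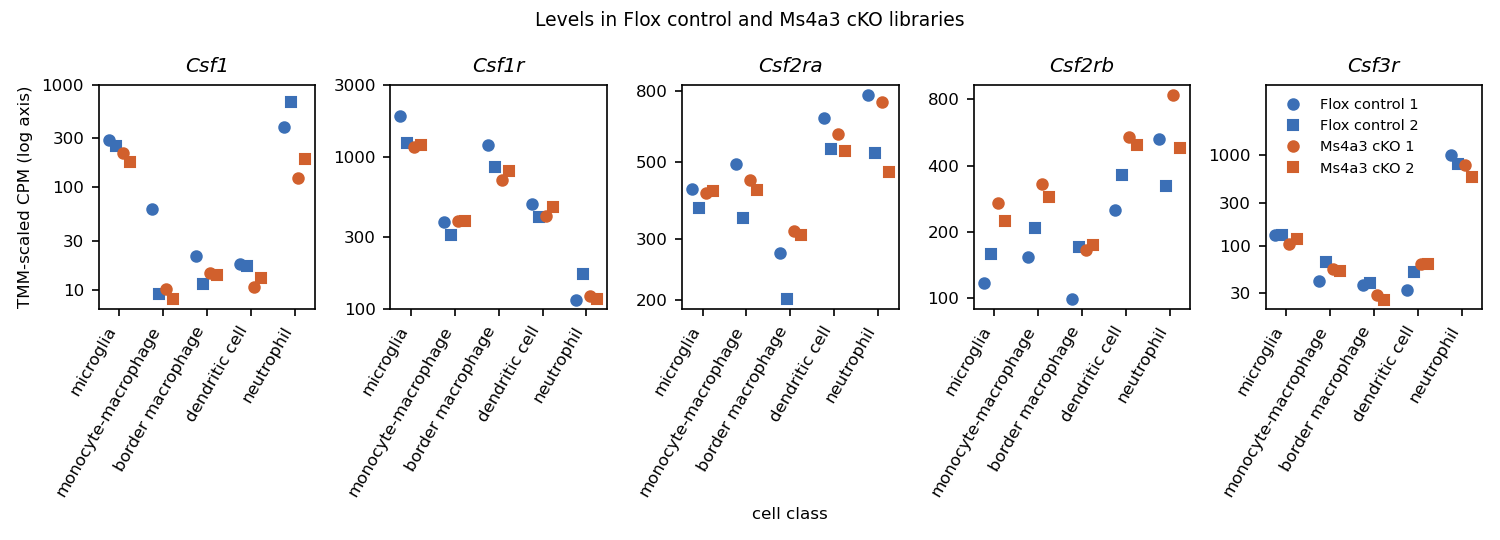
Levels of 5 of the genes by library in 5 myeloid classes, in TMM-scaled CPM on a log axis (each panel with its own range); blue points are Flox control and orange points Ms4a3 cKO libraries. Csf2rb in microglia is at 117 and 159 in the Flox control libraries and at 271 and 224 in the cKO libraries, while Csf2ra overlaps in that class.

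For Csf2ra the log2 fold change was 0.06 in microglia and 0.04 in monocyte-macrophages, with overlapping TMM-scaled levels. On plain CPM both cKO libraries were above both Flox control libraries in each of these classes (370 and 377 against 429 and 432 in microglia), so that order depended on the scaling. In border macrophages Csf2ra had 273 and 202 against 317 and 308 TMM-scaled CPM (0.40, SE 0.20, edgeR's adjusted p = 0.4998), with 0.63 without Flox control 1 and 0.20 without Flox control 2. Csf3r had 1008 and 807 against 772 and 573 in neutrophils (-0.43, SE 0.38, edgeR's adjusted p = 0.955) and 131.2 and 131.3 against 106 and 119 in microglia (-0.23, edgeR's adjusted p = 0.519). In dendritic cells it had 32.2 and 51.7 against 63.7 and 63.2 (0.60, SE 0.33, edgeR's adjusted p = 0.646; without Flox control 2, 1.00 and 0.0114; without Flox control 1, 0.30 and 0.874), and in monocyte-macrophages 0.02.

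Il34 was above both Flox control libraries in both cKO libraries in its 2 source classes. Microglia, where the gene was barely read, had the same order, at 0.172 and 0.294 against 0.346 and 0.311 TMM-scaled CPM (log2 fold change 0.49, edgeR's adjusted p = 0.727). Fibroblasts had 4.94 and 10.7 against 30.1 and 45.5 TMM-scaled CPM (log2 fold change 2.21, SE 0.53, edgeR's adjusted p = 0.266). This passed with no filter on low counts (edgeR's adjusted p = 0.00392). Over 15 alternatives the value ran from 1.81 to 2.91, the highest without Flox control 2. Thinned to 1000 UMIs, 0 of 218 and 11 of 550 fibroblasts of the Flox control libraries and 4 of 100 and 11 of 129 of the cKO libraries held an Il34 UMI, after 46, 313, 30 and 40 shallower cells were left out. Fibroblast cells differed in other ways between these libraries: their median depth was 9482, 1717, 1767 and 1968 UMIs, and the sum of 8 fibroblast markers was 43236, 37107, 20074 and 30749 CPM. The sum of 10 mural markers in the fibroblasts, 379, 367, 304 and 454 CPM, overlapped between the groups. In mural cells Il34 had 73.2 and 73.0 against 103 and 100 (0.48, SE 0.25, edgeR's adjusted p = 0.623). Plain CPM had the same order within cluster 24 (38.7 and 42.7 against 58.3 and 51.2) and the thinned share of mural cells with a UMI did not, at 11.4 and 10.5 against 11.1 and 11.3%. The mural fit, which holds only 36 cells and 10 Il34 UMIs in Flox control 1, was added after the data were seen.

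Counts of members whose groups did not overlap stand here beside the same share over all genes, where that share was computed. In microglia 2 of 6 members were above in both cKO libraries and 3 below, against 25.3% and 23.3% of all genes. In monocyte-macrophages 2 of 5 were above and 0 below (24.4 and 26.3% of all genes), in dendritic cells 2 and 1 of 5 (19.7 and 21.8%), in border macrophages 1 and 2 of 5 (22.3 and 21.8%) and in neutrophils 0 and 2 of 5 (18.1 and 17%). Endothelial cells had 0 and 0 of 5 (21.6 and 17.7%), fibroblasts 2 and 0 of 6 (21.9 and 22.3%) and mural cells 1 and 0 of 6 (23.4 and 19%). Astrocytes had 2 and 0 of 5, oligodendrocytes 2 and 1 of 5, neuroblasts 2 and 0 of 2 and choroid plexus 0 and 0 of 5. The share over all genes was not computed in those last classes, so their counts have nothing to stand beside. The median log2 fold change over the members tested was -0.08 in microglia and 0.04 in monocyte-macrophages, beside -0.0035 and -0.02 over all genes. With 2 to 6 members tested in a class, nothing was read from the counts.

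Genes around the receptors were read from 8 lists, and 0 genes of any list passed in either direction in any class. Counts of list genes without overlap stand beside 25.3% of all genes above and 23.3% below in microglia, 24.4 and 26.3% in monocyte-macrophages, 18.1 and 17% in neutrophils, and 21.6 and 17.7% in endothelial cells. Of 24 genes of signalling below the receptors, 10 were above and 8 below in the cKO libraries without overlap in microglia (median log2 fold change 0.11), 10 and 6 in monocyte-macrophages (0.19) and 5 and 3 in endothelial cells (0.09). In neutrophils 3 of 22 measured were above and 4 below (-0.01). Of the feedback and STAT target genes, 5 of 12 were above and 1 below in microglia (0.26), 6 and 1 of 12 in monocyte-macrophages (0.55), and 5 and 0 of 11 in endothelial cells (0.63), while in neutrophils 1 of 7 was above and 4 below. Cytokines known to induce the ligands had 5 of 8 above and 0 below in monocyte-macrophages (0.87), and 0 above and 4 of 5 below in neutrophils (-1.31). In microglia they had 3 of 8 above and 1 below (0.15), and in endothelial cells 0 of 6 above and 0 below (0.26). Of other blood growth factors and receptors, such as Kit and Flt3l, 0 were above and 3 below in microglia (7 measured), 1 and 3 in monocyte-macrophages (6), 0 and 3 in endothelial cells (4) and 0 and 1 in neutrophils (2). Of the beta common cytokine family 2 of 3 were above in monocyte-macrophages, of the IL-34 binding partners 1 of 2, and of the proteases that release Csf1 1 of 3, with 1 of 3 below. In microglia, neutrophils and endothelial cells the beta common family had 0 above and 0 below (3, 2 and 2 measured). The proteases there had 0 above and 1, 1 and 2 of 3 below. The IL-34 binding partners had 0 above and 0 below in microglia and endothelial cells (1 measured in each). The lineage transcription factors had 1 of 9 above and 5 below in microglia (-0.21), 6 and 2 of 9 in monocyte-macrophages, 0 and 3 of 8 in neutrophils and 1 and 2 of 9 in endothelial cells.

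The 3 list genes with the smallest p in each class are given in TMM-scaled CPM, and none passed. In microglia Egr2, an immediate-early transcription factor induced by CSF1R signalling, stood at 105 and 102 against 48.7 and 55.4 (log2 fold change -0.99, SE 0.13, edgeR's adjusted p = 0.319). Stat3, which relays G-CSF and other cytokine signals, had 145 and 218 against 382 and 304 (0.92, edgeR's adjusted p = 0.457), and Cebpb, a C/EBP factor of macrophages, 101 and 108 against 198 and 150 (0.73, edgeR's adjusted p = 0.457). In monocyte-macrophages the cytokine gene Osm had 131 and 119 against 313 and 279 (1.24, SE 0.15), Cebpd 21.5 and 18.02 against 48.4 and 36.1 (1.10), and Il6 0.254 and 0.300 against 2.57 and 1.23 (2.77), each with an edgeR adjusted p of 0.366. Neutrophils had Egr2 at 166 and 171 against 44.4 and 57.8 (-1.74, SE 0.33, edgeR's adjusted p = 0.294), the cytokine gene Tnf at 1449 and 1956 against 308 and 477 (-2.12, edgeR's adjusted p = 0.348), and the survival gene Bcl2l1 at 39.8 and 79.7 against 318 and 160 (1.95, edgeR's adjusted p = 0.433). In endothelial cells Cebpd had 256 and 298 against 874 and 525 (1.33, SE 0.30, edgeR's adjusted p = 0.529), Bcl2l1 77.0 and 54.8 against 103 and 154 (1.02, edgeR's adjusted p = 0.650) and Stat3 142 and 184 against 344 and 244 (0.83, edgeR's adjusted p = 0.697).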

How the data were processed

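Single-cell libraries of mouse brain cells were analysed, 2 of the Flox control group and 2 of the Ms4a3 cKO group, with groups taken from the sample titles. Per the submitters' processing notes, the authors trimmed reads with fastp 0.24.0 and counted them with STARsolo on mm10; the STARsolo version, annotation and counting of reads shared between genes were not given in the sources used here. Raw UMI counts, without normalization, were deposited by the authors, and every barcode had at least 500 UMIs.

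Barcodes with at least 500 UMIs, 250 genes and under 20% mitochondrial UMIs were kept (60942 of 63181), and 1257 doublets called per library with Scrublet in scanpy 1.11.5 were removed (expected rate 6%; called in 2.22, 1.50, 2.50 and 2.10%). Counts were scaled to 10000 a cell and logged, and 2000 variable genes without the 8 members and Csf2rb2, 30 principal components and 15 neighbours were clustered by the Leiden method (leidenalg 0.10.2, resolution 1). Clusters were named by hand from marker lists after their markers were seen; the names are not the authors', and clusters 7, 12 and 28 stayed unnamed. Counts were summed per library and class and tested with edgeR 4.0.16 in R 4.3.3 (quasi-likelihood F test, TMM, filterByExpr, Benjamini-Hochberg over all genes, threshold 0.05) where every library had at least 50 cells (for mural cells, added after the data were seen, at least 20); SEs come from the F statistic. Microglia and monocyte-macrophages were compared by an interaction with library as a block. DESeq2 1.42.0 was the other tool. The test script was tested on simulated data. Positions are from GENCODE for GRCm38. Binomial and Poisson intervals are exact at 95%, with limits for a count of 0 at 3 counts.

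The members and lists were chosen with earlier results of these data known. Named genes were the members, Csf2rb2, for each member of at least 200 UMIs the 3 genes with the highest correlation over classes among genes of at least 20 CPM in a class, and in 4 classes the 3 list genes with the smallest p. A gene that this rule named for Csf1 is not reported here. Alternatives were DESeq2 and its size factors, no filter, genes with a mean of 50 counts, doublets retained, a mitochondrial limit of 10%, cells of 1000 UMIs or more, resolutions of 0.5 and 2, each library left out, a replicate block, and thinning to 2000 UMIs or none.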

Additional observations from a re-analysis of the deposited data

Results flagged for a closer look

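In 13 pairs of classes the same gene had both cKO libraries above both Flox control libraries in one class and below them in the other. None of these differences was itself tested, and none of the single effects passed edgeR's test. Over all genes 25.3% lay above and 23.3% below in microglia, and 22.3 and 21.8% in border macrophages. Such shares were not computed in astrocytes, oligodendrocytes and neuroblasts. The share of all genes with opposite pairs was not computed either, so nothing was read from the number of pairs. The pair of monocyte-macrophages and microglia for Csf1r has the same form and was tested in the report (0.55). Against border macrophages, where Csf1r had a log2 fold change of -0.44, the difference was 0.596 for monocyte-macrophages (0.15), 1.093 for astrocytes (0.65), 1.353 for oligodendrocytes (0.91) and 1.9467 for neuroblasts (1.51). Against microglia, at -0.38, it was 1.0344 for astrocytes, 1.2943 for oligodendrocytes and 1.888 for neuroblasts. Flox control 1 and Ms4a3 cKO 2 nearly tied in monocyte-macrophages (376 and 378 TMM-scaled CPM), as did Flox control 2 and Ms4a3 cKO 1 in astrocytes (167.5 and 168.2). Csf1r and the microglial markers stood at 12.6 and 12% of their microglial levels in astrocytes, 1.83 and 2.31% in oligodendrocytes and 4.16 and 4.35% in neuroblasts. The part of microglial RNA in these was not tested.

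Csf3r had 0.60 in dendritic cells, against -0.50 in border macrophages (37.4 and 39.2 against 28.7 and 25.5 TMM-scaled CPM; a difference of 1.1003), -0.43 in neutrophils (1.0278) and -0.23 in microglia (0.8248). In oligodendrocytes, where its level was at most 4.73 TMM-scaled CPM, it had 0.77, with differences of 1.2681, 1.1956 and 0.9926 from the same classes. The dendritic cell effect rests on 159 and 112 cells in the cKO libraries. Neutrophil markers in dendritic cells summed to 175, 432, 964 and 708 CPM in the library order used above, and their part in the Csf3r level was not tested.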

How the results depend on the processing

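Apart from Csf2 and Csf3, member levels in their leading classes moved by less than their SD over libraries under every alternative cell set. Leaving out a library cannot move such a mean by a whole SD, so that alternative did not check them. For Csf1 in neutrophils the SD was 285 on a mean of 354 CPM, a wide limit. Which members passed the genotype test depended on the tool, the filter and the libraries. The number of genes passing, 134 summed over the 10 classes that every setting could fit, was 1870 with DESeq2, 3850 with no filter, 343 at Leiden resolution 0.5, and 84 to 14716 with 1 library left out. Members passing numbered 0, but 1 with DESeq2, 2 with no filter and 0 to 13 with 1 library left out, the 13 without Flox control 2. For the difference between monocyte-macrophages and microglia, 0 genes passed, 194 with DESeq2 and 0 to 1338 with 1 library left out. Leaving out a library leaves 1 sample in its group, assumed to vary like the others.

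The labels do not say whether libraries of the same replicate number shared an animal or a day. Correlations of same-numbered deviations ran from -0.27 in neuroblasts to 0.24 in neutrophils, which cannot settle whether they were paired. With the replicate block 355 genes and 0 members passed. A crossed replicate block, added after seeing the data, gave 906 genes and 0 members.

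Of 41 log2 fold changes, 27 of 615 recomputed values changed direction. Leiden resolution 0.5 gave -0.11 for Csf2ra and -0.031 for Csf3r in monocyte-macrophages, and 0.11 for Csf1r and 0.26 for Csf2ra in dendritic cells. Csf1r in dendritic cells was 0.024 at a mean of 50 counts and 0.017 at resolution 2. Csf3r in monocyte-macrophages was -0.0054 with no filter, and Csf1 in endothelial cells 0.0066 with doublets kept. The cause was not tested. With 1 library left out the log2 fold changes ran, in microglia, from -0.048 to 0.16 for Csf2ra and -0.12 to 0.44 for Csf2rb2. In monocyte-macrophages they ran from -2.74 to 0.028 for Csf1, -0.20 to 0.33 for Csf2ra and -0.27 to 0.41 for Csf3r. In border macrophages they ran from -0.57 to 0.31 for Csf1 and -0.0049 to 0.79 for Csf2rb, in dendritic cells from -0.15 to 0.13 for Csf1r and -0.21 to 0.067 for Csf2ra, and in neutrophils from -0.51 to 0.061 for Csf1r and -0.48 to 0.21 for Csf2ra. The ranges for Csf1 were -0.43 to 0.14 in endothelial cells, -0.085 to 0.13 in astrocytes and -2.16 to 0.40 for the difference between classes.

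Shares of cells with a UMI depend on depth and, since shallower cells are left out, on which cells enter: with no thinning and with 2000 UMIs, Csf1r in microglia was 98.4 and 89.6%, Csf3r in neutrophils 67.4 and 57.1%, and both GM-CSF receptor chains in neutrophils 33.0 and 37.8%. Under 10% mitochondrial UMIs, choroid plexus (36 cells) and mural cells (19 cells) of Flox control 1 were too few for a fit, which was not run. Depth leaves Csf2 and Csf3 without a test.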
